A study of Mustela putorius furo with 10 samples.

Results

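The zinc finger genes described here carry RefSeq symbols of the ZNF, ZSCAN and ZKSCAN series in the ferret. On the array, 174 such genes had at least 1 target sequence that the RefSeq gene table names, and 131 of them were measured, that is, the ferret's own RNA was well above background on at least 4 of the 10 arrays. They comprise 123 ZNF, 5 ZSCAN and 3 ZKSCAN genes, out of 26303 genes and unnamed sequences tested, of which 9276 have a symbol. The measured genes were followed through 257 target sequences and 847 probes. Further genes of the family may lie among the 24224 target sequences of the array that the table does not name.

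The samples were peripheral blood mononuclear cells (PBMC) of male ferrets aged 3 months, kept either at 22 °C (control, 6 arrays) or at 4 °C for 1 week (cold, 4 arrays), with 1 ferret per array. All animals were anaesthetised with ketamine and medetomidine before blood was taken from the heart. The cold ferrets were housed singly, and the labels state this only for them, so that temperature and housing cannot be told apart. On every array the ferret's RNA was labelled with the green dye Cy3 and a common reference pool with the red dye Cy5. The level given below is the log2 ratio of Cy3 to Cy5, and a change is the cold mean minus the control mean of that ratio. The question was which genes of this family differ in blood cells after a week in the cold.

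Zinc fingers of the C2H2 type are short protein loops held by a zinc ion, and a row of them reads a stretch of DNA. Many ZNF proteins also carry a KRAB domain, which recruits the co-repressor TRIM28 and, through it, the histone methyltransferase SETDB1, so that the bound DNA is packed into silent chromatin. Transposable elements are the best known targets of these proteins. The SCAN domain, which gives the ZSCAN and ZKSCAN genes their names, lets such proteins pair with each other, and ZKSCAN proteins hold both domains. Several members, however, have no KRAB domain and act as activators, as RNA-binding proteins or in chromatin complexes.

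The share of an array's spots that were well above background was 50.4 to 63.5% for Cy3 and 27.0 to 64.0% for Cy5. Per array, the median Cy5 intensity was 44 to 80 on control arrays and 48 to 152 on cold arrays. Pairwise correlations of the log2 ratio over all genes ran from 0.84 to 0.94 within control, from 0.87 to 0.92 within cold and from 0.76 to 0.93 between the groups. These correlations run across genes and not across animals. Markers of T cells (CD3E, CD2), B cells (CD79A) and monocytes (CD14, CSF1R) were all measured, and so were neutrophil (S100A8), platelet (ITGA2B) and red cell (HBM) genes.

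Most zinc finger genes were somewhat lower in cold, and few by much. Of the 131 members, 93 were lower and 38 higher, so that 71.0% lay below 0 against 52.0% of all genes tested. This excess was smaller with a plain median centring of each array, where 84.0% of the members and 77.1% of all genes lay below 0. On another measure, the share below the median change of all genes, the members then stood at 51.1%. The deposited values had 46.6% of the members and 49.3% of all genes lower. The median change was -0.10 on the log2 scale, against -0.01 for all genes. The lower and upper quartiles of the members were -0.23 and 0.01, and the whole range ran from -0.77 to 0.43. Changes of all genes spread more widely, with an SD over genes of 0.31 against 0.19 for the members. Only 5 members differed by more than 0.5 in either direction, and all 5 were lower (ZNF770, ZKSCAN2, ZNF106, ZNF569 and ZNF24).

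**Figure D1:**
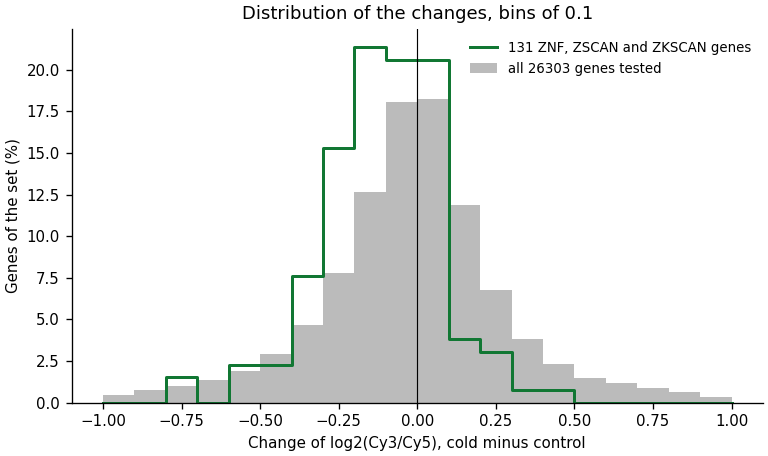
Share of genes (y axis, %) by the change of log2(Cy3/Cy5) from control to cold (x axis, bins of 0.1), for the 131 zinc finger genes (green line) and all 26303 genes tested (grey bars, cut at 1 in either direction). The green line is shifted to the left of the grey bars, with a median of -0.10 against -0.01, and is narrower.

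At the unadjusted threshold of 0.01 that the study's methods use, 14 members were lower in cold and 2 higher (limma). Over all genes tested, 3.43% were lower and 5.21% higher at that threshold, while the members' shares were 10.69% and 1.53%. No member passed the Benjamini-Hochberg threshold of 0.05 over all genes, and neither did any other gene, with a lowest adjusted p of 0.0576. At an unadjusted p under 0.05, 30 members were lower and 4 higher, against 12.5% and 12.2% of all genes. For 12 members all cold arrays lay below all control arrays, and for 1 (ZNF169) above them, against 2.15% and 3.07% of all genes. The count of lower members depended on single arrays: it was 7 without Control 1, 9 without Control 4, and 8 without each of Control 6, Cold 1 and Cold 3. In these fits the share of members was 5.34%, 6.87%, 6.11%, 6.11% and 6.11%, against 1.87%, 3.63%, 2.18%, 2% and 1.81% of all genes. The count past the adjusted threshold became 4 without Control 5 (3.05% of the members against 2.41% of all genes) and 8 without Cold 2 (6.11% against 4.84%). With median centring, 9.92% of the members and 3.6% of all genes were lower at the unadjusted p of 0.01, and in the deposited values 4.58% and 2.24%.

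The medians over the members separated the groups in part. On the control arrays the median log2 ratio of the members was 0.06, 0.06, -0.01, 0.07, 0.00 and 0.07 in the order of replicates 1 to 6, and on the cold arrays it was -0.08, 0.01, -0.10 and -0.05. Cold 2 lay inside the control range and the other 3 cold arrays below it. Within the arrays of slide position 1 alone the median change was -0.08, and within those of position 2 it was -0.09, against medians over all genes of 0.00 and -0.01. The count of members lower at an unadjusted p under 0.01 was 9 with slide position as a block, 5 within position 1 and 1 within position 2. In the same fits 2.96%, 1.43% and 0.118% of all genes were lower, against 6.87%, 3.82% and 0.763% of the members.

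The unadjusted p stayed under 0.01 with each of the 10 arrays left out in turn for 6 genes, and all 6 were lower in cold (ZNF106, ZNF24, ZNF576, ZNF770, ZNF569 and ZNF711). In Cy3 alone, however, ZNF24 (-0.36) was the one gene of the 6 that kept that threshold. The others changed there by -0.35 (ZNF106), -0.33 (ZNF576), -0.29 (ZNF770), -0.28 (ZNF569) and -0.33 (ZNF711), with unadjusted p-values from 0.0278 to 0.229 (limma). ZNF569 and ZNF711 also lost it with median centring (-0.67 and -0.54) and in the deposited values (-0.36 and -0.22), and ZNF711 with processed intensities (-0.80).

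ZNF106 encodes a protein that binds RNA and takes part in splicing. Its control arrays ran from -0.34 to 0.04 with a median of -0.25, and its cold arrays stood at -0.66, -0.64, -0.81 and -0.95. All cold arrays were below the lowest control array. The change was -0.56 (SE 0.0975), with an unadjusted p of 0.000136 and an adjusted p of 0.0576 in limma, and an exact permutation p of 0.00476, the smallest that the 210 splits of the arrays allow.

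ZNF24, a SCAN domain factor known for repressing the angiogenic gene VEGFA, showed the tightest cold group of the 6. The control arrays of ZNF24 ranged from -0.28 to 0.14 (median -0.12), and the cold arrays were at -0.54, -0.55, -0.67 and -0.57. The groups did not overlap, and the SD was 0.062 in cold against 0.17 in control. Its change was -0.50 (SE 0.0956, limma adjusted p 0.0632).

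For ZNF576 the control arrays lay between -0.05 and 0.18 (median 0.09), and the cold arrays at -0.32, -0.34, -0.40 and -0.19. The groups were again apart, by a change of -0.38 (SE 0.0763, limma adjusted p 0.0638). All 4 probes of ZNF106, of ZNF24 and of ZNF576 were lower in cold.

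ZNF770 had the largest change of all members, and also wide spreads. In control its ratio ran from -0.98 to -0.19 (median -0.40), and in cold it was -1.65, -0.89, -1.39 and -1.17. Cold 2 lay above the lowest control array, so the groups overlapped. The change was -0.77 (SE 0.179, limma adjusted p 0.0736, exact permutation p 0.0143).

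ZNF569, a KRAB repressor tied to MAP kinase signalling, stood between -0.27 and 0.05 in control (median -0.20) and at -1.18, -0.33, -0.66 and -0.62 in cold. The groups did not overlap, but Cold 1 lay far below the other cold arrays, and the change of -0.55 (SE 0.143, limma adjusted p 0.0823) was -0.39 without it. ZNF711, an X-linked relative of ZFX in which mutations cause intellectual disability, ranged from -0.05 to 0.21 in control (median 0.11) and was -0.47, -0.19, -0.22 and -0.14 in cold. All of its 12 probes, which belong to 3 target sequences, were lower, and the change was -0.35 (SE 0.0898, limma adjusted p 0.0828).

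ZNF32 and ZNF398 also passed the unadjusted threshold without overlap. For ZNF32 the control arrays spanned -0.21 to 0.04 (median -0.04), and the cold arrays were -0.54, -0.25, -0.58 and -0.29. Its change of -0.34 (SE 0.0933, limma adjusted p 0.0892) lost the threshold without Cold 1 or Cold 3. ZNF398, a KRAB protein known to interact with the oestrogen receptor, differed by little but with small spreads. Its control arrays were between 0.14 and 0.26 (median 0.19) and its cold arrays at -0.02, 0.10, -0.12 and -0.06. The change was -0.22 (SE 0.0702, limma adjusted p 0.113), and it stayed past the unadjusted threshold in 1 of the 10 fits with an array left out.

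A further 6 members were lower at an unadjusted p under 0.01, with groups that overlapped, and they are named here because they complete that count, after their values were seen. ZNF292 is a very large zinc finger gene mutated in neurodevelopmental disorders. It ranged from -0.23 to 0.08 in control and was -0.50, -0.21, -0.40 and -0.43 in cold, a change of -0.34 (SE 0.0944). ZNF148, also called ZBP-89, binds GC-rich promoters and changed by -0.30 (SE 0.0890), with 16 of its 16 probes lower. ZNF395, which hypoxia induces, changed by -0.42 (SE 0.130), and 11 of its 12 probes were lower.

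The other 3 genes of that set were ZNF436, ZNF212 and ZKSCAN2. ZNF436 changed by -0.36 (SE 0.113) from a control mean of -0.65 ± 0.20 (SD, n = 6). ZNF212 changed by -0.27 (SE 0.0858), and all 8 of its probes were lower. ZKSCAN2, which holds KRAB and SCAN domains, had 2 of its 4 probes measured and ran from -0.90 to 0.17 in control and at -1.57, -0.67, -0.996 and -0.86 in cold. Its change of -0.70 (SE 0.221) was the second in size, with a wide error, and the deposited value table turned its sign, to 0.08. In Cy3 alone it differed by -0.17 (limma unadjusted p 0.226), while the Cy5 channel was higher by 0.24. Adjusted p-values of these 6 genes lay between 0.0934 and 0.115 (limma), and each lost the unadjusted threshold in at least 6 of the 10 fits with an array left out.

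**Figure D2:**
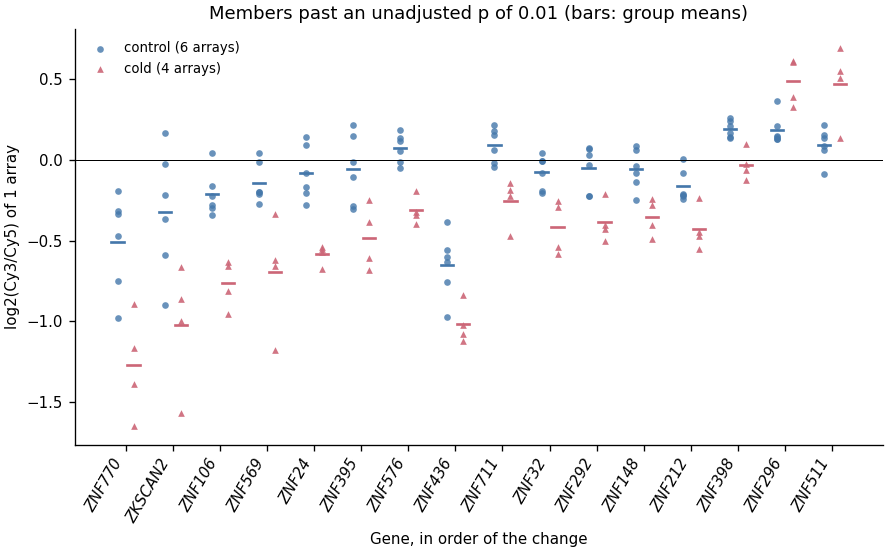
log2(Cy3/Cy5) on each array (y axis) of the 16 members with an unadjusted p under 0.01 (x axis, in order of the change), for 6 control arrays (blue circles) and 4 cold arrays (red triangles), with group means as bars. For 14 genes the cold mean lies below the control mean, and in ZNF106, ZNF24, ZNF576, ZNF569, ZNF711, ZNF32 and ZNF398 no cold point reaches the control points.

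Only 2 members were higher in cold at the unadjusted threshold. ZNF511 lay between -0.09 and 0.21 in control (median 0.11) and at 0.55, 0.14, 0.70 and 0.51 in cold. Cold 1, 3 and 4 stood above all control arrays and Cold 2 within them, and the change was 0.38 (SE 0.109, limma adjusted p 0.0966). ZNF296, known in mice as a partner of KLF4 in pluripotent cells, ranged from 0.13 to 0.37 in control (median 0.14) and was 0.62, 0.33, 0.61 and 0.39 in cold. Only the highest control array, Control 5, reached the cold values, and the change was 0.30 (SE 0.0865, limma adjusted p 0.0974). Both lost the threshold in 6 of the 10 fits with an array left out. In Cy3 alone ZNF511 differed by 0.23 and ZNF296 by 0.036 (limma unadjusted p 0.0322 and 0.682), and ZNF296 by 0.11 with processed intensities and 0.088 with median centring.

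The next 3 genes higher in cold did not pass the threshold in the ratio. ZNF513, a gene of the retina, averaged -0.17 ± 0.11 over the 6 control arrays and 0.03 ± 0.075 over the 4 cold arrays (means and SD), a difference of 0.20 (SE 0.0798, limma unadjusted p 0.0321). That difference turned to -0.06 in Cy3 alone, -0.24 in the deposited values and -0.75 with median centring. In Cy5 alone ZNF513 changed by -0.20 (limma unadjusted p 0.00654), so its higher ratio went with a lower value of the pool. ZNF687, which works in a chromatin complex with ZMYND8, differed by 0.23 (SE 0.100), and its sign turned in the deposited values (-0.06) and with median centring (-0.44). ZNF496, a KRAB and SCAN protein that binds the histone methyltransferase NSD1, differed by 0.22 (SE 0.112). It differed by more in Cy3 alone, at 0.47 with a limma unadjusted p of 0.00709, and in the deposited values, at 0.69. The largest value above 0 belonged to ZNF275, at 0.43 with an SE of 0.277, whose control arrays alone ran from -0.75 to 0.92. It was -0.45 with median centring and 0.03 in the deposited values.

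Among the 12 members with every cold array below the control arrays, 5 did not reach an unadjusted p of 0.01, and they are listed because their groups did not overlap. ZNF846 differed by -0.29, ZSCAN25 by -0.23, ZNF527 by -0.20, ZNF691 by -0.14 and ZNF382 by -0.14. ZNF382, a KRAB gene, was measured by 28 probes of 8 target sequences, and all 28 were lower. Its control arrays lay between 0.06 and 0.17 and its cold arrays between -0.11 and 0.03, a small difference with small spreads. ZNF527 was dim, well above background on 5 control and 2 cold arrays, so that it met the limit of 4 arrays mainly through control and its cold values lay near background. ZNF527 and ZNF382 turned in sign in the deposited value table, to 0.26 and 0.21. ZNF169, the single member with every cold array above the control arrays, differed by 0.10, with 2 of its 4 probes higher and 2 lower, and its sign turned in Cy3 alone (-0.05) and with median centring (-0.07). ZNF235 differed by -0.07 (SE 0.0702, limma unadjusted p 0.340), with control arrays between 0.23 and 0.40 and cold arrays at 0.35, 0.17, 0.19 and 0.22. Its difference was larger in other settings, at -0.31 in Cy3 alone (limma unadjusted p 0.0143), -0.44 with the scanner's processed intensities, -0.60 with median centring (limma unadjusted p 0.0115) and -0.24 in the deposited values, and it did not reach an unadjusted p of 0.01 in these. The target sequence XM_004752298.1, which the study calls ZSCAN30 in a later version, has no name in the RefSeq table and is not counted among the 131. It ranged from -0.59 to -0.33 in control (median -0.42) and was -0.59, -0.72, -0.84 and -0.78 in cold, where Cold 1 alone overlapped the control arrays. The change was -0.29 (SE 0.0855, limma unadjusted p 0.00663, adjusted p 0.103), and it was -0.41 in Cy3 alone.

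Because the ratio holds both channels, the members were also followed in each channel alone. In Cy3 alone, quantile normalized between arrays, the median change of the members was -0.15 against -0.04 for all genes, and 81.7% of the members were lower against 57.1%. In Cy5 alone, which carries the same pool on every array, the medians were 0.02 and 0.03, and 37.4% of the members against 38.0% of all genes were lower. At an unadjusted p under 0.01 in Cy5 alone, 2 members were lower and 0 higher, against 1.79% of all genes in either direction. Relative to all genes, the members' median was thus -0.11 in the channel of the ferrets and -0.01 in that of the pool. The pool's channel was dim, with a members' median log2 intensity per array of 6.695 to 6.791, against 8.485 to 8.741 in Cy3. Over all spots, 27.0 to 64.0% per array were well above background in Cy5, and probes were filtered on Cy3 only. Dim values can hide a change, so the small Cy5 value does not place the shift in the ferrets' RNA. All 14 members called lower by the ratio were also below 0 in Cy3 alone, and both called higher were above 0, though ZNF296 by only 0.036. In Cy5 alone, 2 of these 14 were below 0, and 0 of the 2 called higher were above 0. The ratios of the called members thus hold changes of both channels.

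Cy3 alone called mostly other genes. At an unadjusted p under 0.01, 9 members were lower and 2 higher in Cy3 alone, against 4.36% and 5.48% of all genes, and 2 of these 11 (ZNF24 and ZNF212) were also called by the ratio. In Cy3 alone, 3 members passed the adjusted threshold, as 2.82% of all genes did, namely ZNF697 at 0.72, ZSCAN2 at -0.54 and ZNF41 at -0.41. The adjusted p was 0.0342 for ZNF697 and ZSCAN2, and 0.0458 for ZNF41 (limma). In the ratio these genes differed by 0.06, -0.02 and -0.11. For ZSCAN2 and ZNF41 the reference channel was lower as well, by -0.48 and -0.31, and each was measured by a single probe. ZNF697 had 4 probes, all higher in cold, and a Cy5 change of 0.11. It was also higher with median centring (0.62), with processed intensities (0.76) and in the deposited values (0.85).

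**Figure D3:**
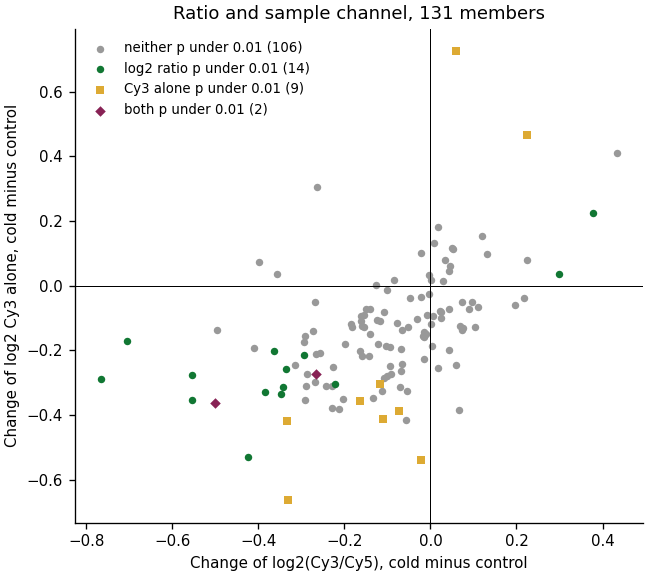
Change of log2(Cy3/Cy5) (x axis) against the change of log2 Cy3 alone (y axis), both cold minus control, for the 131 members, marked by which of them passed an unadjusted p of 0.01. Most points lie at the lower left, and 2 genes passed in both.

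Levels against the reference pool, which mixes PBMC with other tissues, were even. On the control arrays the members' mean log2 ratio had a median of 0.07, against 0.03 for all genes, and an SD over genes of 0.34 against 0.60. Only 3 members (2.29%) lay beyond 1 in either direction, against 7.50% of all genes. Since the ratio is taken within each probe, it says how PBMC compare with the pool for that gene and not which gene has more RNA.

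The highest ratio belonged to ZNF831, at 1.27 ± 0.29 in control and 0.94 ± 0.15 in cold (SD, n = 6 and 4). ZSCAN10, a factor known from embryonic stem cells, followed at 0.94 ± 0.25 and 0.88 ± 0.40, and ZNF830 at 0.55 ± 0.091 and 0.44 ± 0.11. The ranges of ZNF831 and ZSCAN10 in control overlapped, at 0.96 to 1.71 and 0.69 to 1.41, while ZNF830 lay at 0.42 to 0.66, below both. Lowest were ZNF41, an X-linked KRAB gene, at -1.25 ± 0.21, ZSCAN2 at -1.19 ± 0.59 and ZNF668, a gene of the DNA damage response, at -0.97 ± 0.26 in control. Their control ranges overlapped, and none of these 6 genes reached an unadjusted p under 0.01 in the ratio. ZNF831 differed by -0.33 in the ratio and passed that threshold in Cy3 alone (-0.66), with processed intensities (-0.65), with median centring (-1.30) and in the deposited values (-0.88). ZSCAN2 and ZNF41 passed it in Cy3 alone, as given above.

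Detection limited what could be seen. Of the 174 genes on the array, 103 were well above background on all 10 arrays and 22 on none. Just inside the limit, with 4 arrays, were ZNF471, ZNF483, ZNF521 and ZNF660, and just outside, with 3, was ZNF827. ZNF471 was not well above background on any cold array, so its cold value is only a bound and its change is not read. It was the one member with no such array in a group, and it is counted among the 93 lower. Without it, 92 of 130 members (70.8%) were lower, with a median change of -0.10. Among the 103 members well above background on all 10 arrays, 69.9% were lower, against 50.8% of all genes that met the same limit. When all genes were cut into 4 equal bins by their mean Cy3 brightness, the members' median change was -0.08 and -0.08 in the dimmer bins and -0.11 and -0.11 in the brighter ones. All genes went from -0.04 in the dimmest bin to 0.02 in the brightest. From dim to bright, the bins held 39, 44, 31 and 17 members.

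Most genes with several target sequences gave 1 direction. Of the 64 members with at least 2 measured sequences, 48 (75%) had all of them on the same side of 0, of which 35 were lower and 13 higher, against 81.8% of 3228 genes with several sequences. Sequences of a gene often share transcript parts and lie on the same arrays, so they are no independent replicates. The median distance between the highest and the lowest sequence of a member was 0.091, against 0.080 for all such genes. Among 251 pairs of sequences within members, no pair differed in change at an adjusted p of 0.05 (limma), 1 did at an unadjusted p of 0.01 and 11 at 0.05. Over all 12377 pairs, 1.31% passed the unadjusted p of 0.01, and 4.26% passed that of 0.05, against 4.38% of the members' pairs.

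ZKSCAN1, a KRAB and SCAN gene also known for its circular RNA, had the widest split. The sequence XM_004781834.1, read by 1 probe, ran from -0.04 to 0.37 in control and from 0.18 to 0.51 in cold, a difference of 0.23 (SE 0.106). The sequence XM_004781836.1, read by 4 probes, ran from -0.14 to 0.28 in control and from -0.60 to 0.04 in cold, a difference of -0.38 (SE 0.125). These changes were 0.60 apart (SE 0.173, unadjusted p 0.00442, adjusted p 0.553, limma). Over both sequences the gene differed by -0.26, and by 0.08 in the deposited values.

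ZNF532, a close relative of ZNF687, was measured by 5 sequences with 1 probe each, all dim. Its changes ran from -0.13 for XM_004745565.1 to -0.56 for XM_004745566.1, all below 0, and over the gene the difference was -0.40 (SE 0.175). In Cy3 alone it was 0.07 and in the deposited values 0.22, so its direction was not settled. The 3 sequences of ZNF19 differed by -0.03, -0.11 and -0.21, and the 4 of ZNF322 lay between -0.04 and 0.13. ZSCAN29, with 6 sequences of 4 probes each, stayed between -0.05 and 0.12, and 11 of its 24 probes were lower and 13 higher.

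**Figure D4:**
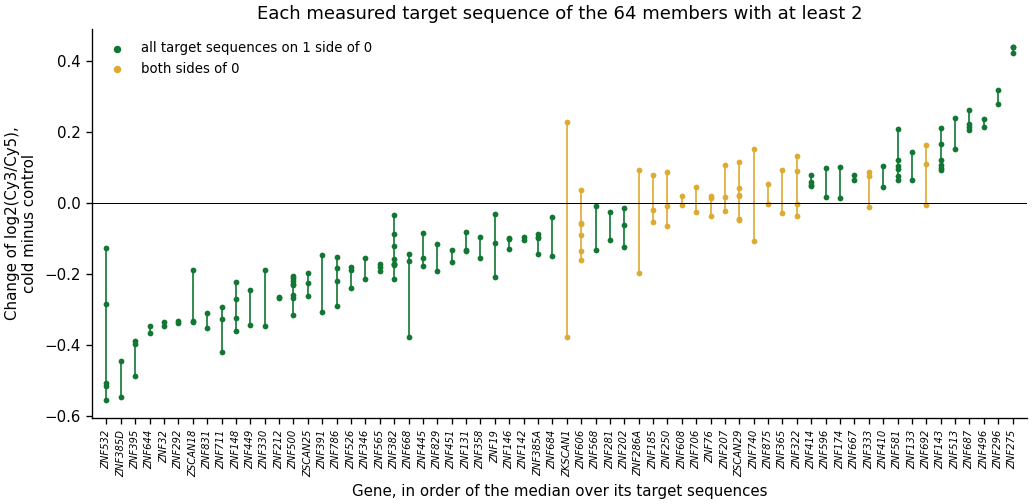
Change of log2(Cy3/Cy5) from control to cold (y axis) of each measured target sequence (points) for the 64 members with at least 2 (x axis, in order of their median), with a line from the lowest to the highest. In 48 genes (green) all points lie on one side of 0, and ZKSCAN1 has the longest line, 0.60.

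Zinc finger genes often stand in clusters along a chromosome. By gene order in the RefSeq table, 39 of the 131 members had another ZNF, ZSCAN or ZKSCAN gene as a neighbour and 92 did not. The median change was -0.11 in the first set, with 29 of 39 lower, and -0.09 in the second, with 64 of 92 lower. At an unadjusted p under 0.01, 4 of the clustered members were lower and none higher, and of the others 10 were lower and 2 higher. Over all genes, 52.0% were lower, and 3.43% were lower and 5.21% higher at that threshold. One run of 8 genes holds ZNF212, ZNF398 and ZNF786, its 3 measured members, with changes of -0.27, -0.22 and -0.21. Another, of 4 genes, holds ZNF875 at 0.03, ZNF527 at -0.20, ZNF569 at -0.55 and ZNF570 at -0.16.

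Of the 43 genes listed for the silencing machinery that KRAB proteins recruit, 22 were measured under their symbol. TRIM28 and SETDB1 themselves were not among them. Their median change was -0.20, and 16 of the 22 were lower. Over all genes, 52.0% were lower. At an unadjusted p under 0.01, 2 of the 22 were lower and none higher, against 3.43% and 5.21% of all genes, and none passed the adjusted threshold. DNMT3A, which sets new DNA methylation, lay between 0.13 and 0.33 in control and at 0.10, -0.17, -0.62 and -0.18 in cold. Every cold array was below the control arrays, and the change was -0.46 (SE 0.123, limma adjusted p 0.0872).

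ATRX, a chromatin remodeller that works with DAXX, ranged from -0.13 to 0.34 in control and was -0.39, -0.17, -0.06 and -0.32 in cold. The groups overlapped through Cold 3, and the change was -0.37 (SE 0.116, limma adjusted p 0.113). The count of such genes past the unadjusted threshold was 1 without each of Control 1, Control 4, Control 5, Control 6, Cold 2 and Cold 4, in fits where 5.42 to 12.9% of all genes passed in either direction, against 8.64% with all arrays. HP1 alpha (CBX5) differed by -0.44 (SE 0.154) and TASOR, a subunit of the HUSH silencing complex, by -0.27 (SE 0.0952), short of the threshold. MORC3 had the largest value above 0, at 0.44 (SE 0.196).

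Other zinc finger families serve as a frame. The 23 measured ZBTB genes had a median change of -0.15, with 18 lower and 2 of them at an unadjusted p under 0.01. The 9 KLF genes had a median of 0.12, with 5 higher, 1 of them at that threshold. All 3 IKZF genes, which encode Ikaros factors of lymphocytes, were lower, with a median of -0.08 and 1 at that threshold. For comparison, 52.0% of all genes were lower, and 3.43% were lower and 5.21% higher at that threshold. No difference between these families was tested.

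Blood cell markers moved with the groups, and their part in the results on zinc finger genes was not tested. In bulk RNA, fewer cells of a type and less RNA per cell cannot be told apart. Of 20 T cell genes, 17 were measured (ZAP70, TCF7 and BCL11B were not), with 15 lower, 2 of them at an unadjusted p under 0.01, where 3.43% of all genes were lower and 5.21% higher. Their mean log2 ratio ran from 0.11 to 0.33 on control arrays and from -0.73 to 0.08 on cold arrays, without overlap. Of 14 neutrophil genes, 7 were measured, and all were higher, 3 of them at that threshold (MPO, S100A9 and S100A8). CXCR2, S100A12, CSF3R and MMP9 did not pass it. The mean of the 7 ran from 0.51 to 1.22 in control and from 1.52 to 1.94 in cold, again without overlap.

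The other marker lists varied more. All 10 measured B cell genes of 12 were lower (means from -0.25 to 1.27 in control and from 0.11 to 0.45 in cold), and 7 of the 9 measured monocyte genes of 12 were higher (0.01 to 0.29 against 0.00 to 0.92). All 8 measured platelet genes of 12 were higher, 4 at an unadjusted p under 0.01, with means from -0.04 to 1.30 in control and from 0.86 to 1.75 in cold. All 4 measured red cell genes of 12 were lower (0.18 to 1.12 against -0.85 to -0.06, without overlap). The 7 measured NK cell genes of 13, with a median change of 0.09, had means from 0.39 to 1.06 in control and from 0.17 to 1.17 in cold. Of these lists, 1 B cell gene and 1 red cell gene were lower and 2 monocyte genes higher at that threshold, and no NK cell gene passed.

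**Figure D5:**
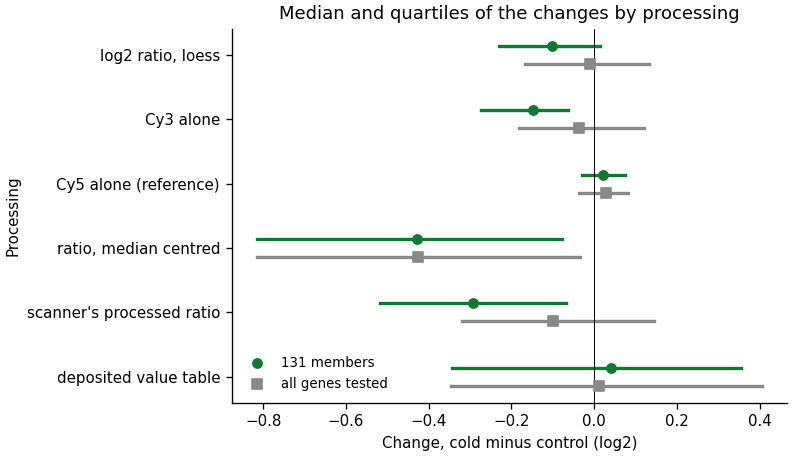
Median (symbols) and quartiles (lines) of the changes from control to cold on the log2 scale (x axis) for the 131 members (green circles) and all genes tested (grey squares), by the processing of the intensities (y axis). The members' median lies left of that of all genes for the loess ratio, Cy3 alone and the scanner's processed ratio, and next to it for Cy5 alone, the median-centred ratio and the deposited values.

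Both the size and the presence of a shift depended on the processing. Relative to the median of all genes, the members' median was -0.09 for the loess ratio, -0.11 for Cy3 alone and -0.19 for the ratio of intensities processed by the scanner software. It was 0.00 with median centring, where the median of all genes was itself -0.43, and 0.03 in the deposited values. The 14 members called lower were chosen for low ratios on these same arrays, so the direction of each in the other settings is not independent. All 14 were below the median of all genes in each of these settings other than the deposited values, where 13 were, the exception being ZKSCAN2.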

How the data were processed

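PBMC RNA of 6 control and 4 cold ferrets was hybridised, 1 ferret per array, to custom 2-colour Agilent arrays with Cy3 for the ferret and Cy5 for the common reference pool. The authors deposited the spot intensities of both channels as the scanner software wrote them (Agilent Feature Extraction 10.7.3.1), not normalized, with local background and quality flags. Log2 values per target sequence, processed by the authors, were deposited too and served as an alternative only, since how their constants per array and per sequence were set is not given in the sources used here.

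Background of the median spot intensities was corrected by normexp (offset 50, limma 3.58.1, R 4.3.3). Control spots were left out, and log2(Cy3/Cy5) was normalized within arrays by loess (span 0.3, 4 iterations). The mean intensity had been planned, but the files carry the median. Outlier spots were dropped, spots were averaged per probe, and probes per gene. Probes entered the fit where 0.5 or more of their spots passed the scanner's Cy3 background flag on at least 4 arrays. Names came from RefSeq accessions (assembly ASM1176430v1.1). No coordinates are printed, because the probes are not placed on that assembly here. Groups were compared with limma (lmFit, eBayes) and Benjamini-Hochberg adjustment at 0.05 over all 26303 genes, and single genes also with an exact two-sided permutation test over the 210 splits. The scripts were tested on simulated data. With 10 arrays, small changes are measured with little precision.

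Alternatives were Cy3 alone, processed intensities, median centring, no background subtraction, the deposited table, other filters on dim probes, a median over probes, fits per target sequence, the t-test of the methods, array weights, blocks for slide position or replicate number, and leaving out each array. Fits within 1 slide position were added after the data were seen. Members and gene lists were chosen with earlier results of these data known. Genes described singly were ZNF770 and ZNF235, which the study names, members past an unadjusted p of 0.01 without overlap, the 5 lowest p-values among those higher, the 5 lowest p-values for a difference between target sequences, the 3 highest and 3 lowest control ratios, and co-repressors past the unadjusted threshold. The other members past that threshold were added after their values were seen, which makes 31 members. Further genes given with values, such as ZNF275, ZNF382, ZNF527, ZNF169, ZNF697 and CBX5, fall outside this rule, and the counts over the 31 members leave them out. ZSCAN30, which the study also names, has no accession of the array in the RefSeq table, so its sequence was described under the accession the study gives, without its version, and not as a member. Protein features of the members were not analysed here.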

Additional observations from a re-analysis of the deposited data

Results flagged for a closer look

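Among the 31 members described singly, 62 groups of arrays were searched for an array far from the others, where chance alone marks about 5% of groups. In control, ZNF296 stood out on Control 5, at 0.37 with the nearest array at 0.21, a gap of 0.666 of the group's range. In the same group ZSCAN10 stood out on Control 5 as well, at 1.41 with the nearest at 0.95, a gap of 0.648 of the range. In cold, ZNF687 stood out on Cold 2, at 0.18 with the nearest at 0.52, a gap of 0.837 of the range.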

How the results depend on the processing

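The count of members lower in cold at an unadjusted p under 0.01 (14) became 9 in Cy3 alone, 6 in the deposited values, 9 with slide position as a block, 5 within slide position 1 and 1 within position 2, where fewer arrays were fitted. The count higher (2) became 0 with the scanner's processed intensities and within slide positions 1 and 2, where 2.43%, 2.45% and 1.42% of all genes were higher. It became 1 without background subtraction, with median centring and in the deposited values, where 4.56%, 0.817% and 1.92% of all genes were. With a filter on all 10 arrays it became 3, where 5.78% of all genes were higher. Members past the adjusted threshold (0) became 3 in Cy3 alone (2.29% against 2.82% of all genes). With a filter on all 10 arrays the count was 1, ZNF106 (0.971% against 0.533%). The median change (-0.10) was -0.29 with processed intensities, -0.43 with median centring, -0.148 in Cy3 alone and 0.0403, reversed, in the deposited values. Members without overlap (13) became 7 with median centring, 6 in the deposited values, and 38 and 60 within slide positions 1 and 2, where fewer arrays make overlap rarer. As shares, these were 9.92%, 5.34%, 4.58%, 29% and 45.8% of the members, against 5.22%, 2.44%, 2.31%, 23.9% and 37.7% of all genes. Co-repressor genes past the unadjusted threshold (2) became 1 in Cy3 alone and with the filter on all 10 arrays. They were also 1 by the methods' t-test and with slide position as a block, and 0 within positions 1 and 2. In these fits 9.84%, 9.36%, 6.56%, 7.88%, 3.88% and 1.54% of all genes passed in either direction. The count became 3 with processed intensities, median centring, the deposited values, no filter on dim probes, a median over probes and array weights. There 5.72%, 4.42%, 4.16%, 6.95%, 8.6% and 11% of all genes passed, against 8.64% in the main fit. The causes of the other moves were not tested. The count of pairs of target sequences past the adjusted threshold stayed 0 in each setting run.

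With 1 array left out in turn, the lower count ran from 7 to 15 (5.34 to 11.5%, against 1.81 to 7.19% of all genes). The higher count ran from 0 to 3, where 3.03 to 7.05% of all genes were higher. The count past the adjusted threshold ran from 0 to 8, and the median change from -0.12 to -0.08. The members without overlap ran from 13 to 25 (9.92 to 19.1%, against 5.71 to 13% of all genes), and the co-repressor count from 1 to 3. By the methods' t-test, 15 members (11.5%) were lower and 2 higher at the unadjusted threshold, against 2.53% and 4.03% of all genes. None passed after Benjamini-Hochberg adjustment.

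Groups share replicate numbers, but arrays with the same number did not deviate together (correlations of -0.30, 0.54, 0.10 and -0.19, and 0 of 4 cold arrays closest to their own number), so the numbers were not taken as pairs. With the replicate block the lower count was 7 (5.34% of the members against 4.23% of all genes, where the fit without it had 10.69% and 3.43%), the higher 0, the co-repressor count 1, and the change of ZSCAN10 and ZSCAN2 turned to 0.0499 and 0.0945.

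Of 679 values of the 31 genes described singly under all alternatives, 497 kept direction and side of the threshold, 139 lost the threshold, 9 reached it and 34 turned in sign. In the deposited values the turned changes were ZNF513 -0.24, ZNF687 -0.0586, ZKSCAN1 0.0774, ZNF532 0.22, ZNF19 0.39, ZNF668 0.34, ZSCAN2 0.35, ZNF41 0.17 and ZKSCAN2 0.0762. With median centring they were ZNF513 -0.75, ZNF687 -0.44, ZNF322 -0.30 and ZSCAN29 -0.12, with processed intensities ZNF322 -0.10 and ZSCAN29 -0.0679, and in Cy3 alone ZNF513 -0.0586 and ZNF532 0.0749. Other turns were ZSCAN29 at -0.0255 by the median over probes, ZSCAN10 at 0.0588 with array weights, and ZSCAN2 at 0.0146 without background subtraction, 0.00026 without the filter and 0.12 with slide position as a block. With an array left out, changes ran from -0.0665 to 0.0564 for ZSCAN29, -0.20 to 0.10 for ZSCAN10, -0.21 to 0.13 for ZSCAN2 and -0.21 to 0.0076 for ZNF41. ZSCAN2 and ZNF41 rest on 1 probe each, and ZNF532 on 5 dim probes.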
